A study of Homo sapiens with 12 samples.

Results

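The HOX gene clusters are the 39 genes of the deposited table whose symbol is HOX, a cluster letter from A to D and a number, out of 23346 genes in all. There were 11 members in HOXA, 10 in HOXB, 9 in HOXC and 9 in HOXD. They were measured by RNA-seq in SW1990 and CFPAC-1, established human pancreatic adenocarcinoma lines, each stained with the monoclonal antibody GCTM-5 against a cell surface glycoconjugate of ductal progenitor and pancreatic cancer cells. Fluorescence activated cell sorting gave GCTM-5 positive and GCTM-5 negative cells of each line, with 3 samples from triplicate sorts in each of the 4 groups and 12 samples in all. Both lines were grown untreated as monolayers in the same medium. The paper describes sorting into positive and negative cells without giving the gates, so whether cells of intermediate staining were kept is not known. Each group stands for a single line, and a difference between the lines is a difference between 2 cultures.

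HOX genes encode homeodomain transcription factors that set position along the body axis. They lie in 4 clusters, and within a cluster the low numbered (anterior) genes are used in the front of the embryo and the high numbered (posterior) genes towards the rear. Genes with the same number in different clusters are paralogs and encode closely similar homeodomains. HOX proteins bind DNA together with TALE homeodomain cofactors of the PBX and MEIS families, and the clusters are kept silent by Polycomb proteins and opened by Trithorax proteins and retinoic acid receptors.

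By GENCODE annotation on GRCh37, the HOXA members lie on the minus strand of chromosome 7, and the HOXB members on the minus strand of chromosome 17 between 46605888 and 46806112. The HOXC members lie on the plus strand of chromosome 12 between 54332615 and 54449814, and the HOXD members on the plus strand of chromosome 2 between 176957449 and 177055635. Levels are RPKM, reads scaled to gene length and library total, so levels of different genes are compared per length. The library totals recovered from the values were 9969697 to 26159330 reads.

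The paralogs of number 10 are shown as 1 example of paralogs used differently by the 2 lines. The homeoboxes of *HOXA10*, *HOXC10* and *HOXD10*, which encode the DNA binding homeodomain, were taken from GENCODE transcripts on GRCh37 and are 180 bases long. Each lies within 1 exon, at chr7:27211566-27211745 on the minus strand, chr12:54383003-54383182 on the plus strand and chr2:176983732-176983911 on the plus strand. Capitals mark codons 42 to 58, the recognition helix that contacts the major groove.
HOXA10: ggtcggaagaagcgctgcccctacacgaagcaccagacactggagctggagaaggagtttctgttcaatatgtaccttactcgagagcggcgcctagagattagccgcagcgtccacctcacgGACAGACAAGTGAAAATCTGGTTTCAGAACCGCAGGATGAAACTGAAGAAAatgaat
HOXC10: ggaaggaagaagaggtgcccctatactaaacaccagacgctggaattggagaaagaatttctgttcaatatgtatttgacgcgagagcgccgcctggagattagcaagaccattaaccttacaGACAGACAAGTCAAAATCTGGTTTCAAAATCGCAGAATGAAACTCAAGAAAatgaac
HOXD10: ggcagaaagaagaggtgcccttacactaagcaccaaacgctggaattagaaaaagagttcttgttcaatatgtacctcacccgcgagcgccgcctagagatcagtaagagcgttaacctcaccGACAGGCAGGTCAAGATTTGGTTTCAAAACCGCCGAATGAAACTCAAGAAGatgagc

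*HOXA10* and *HOXC10* shared 147 of these 180 bases and 46 of the 51 bases in capitals. *HOXA10* and *HOXD10* shared 140 and 41, and *HOXC10* and *HOXD10* shared 149 and 44. Over all 39 members, the 42 pairs with the same number shared a median of 147 of 180 homeobox bases and the 699 pairs with different numbers a median of 109. The longest identical run between the longest transcripts of *HOXA10* and *HOXC10* was 17 bases, and between any 2 members at separate loci it was 62 bases, for *HOXB3* and *HOXD3*.

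Of *HOXC4* and *HOXC5*, members of the HOXC cluster, *HOXC5* was called lower in positive SW1990 cells and *HOXC4* was not. GENCODE on GRCh37 starts *HOXC4* at 54410715 and *HOXC5* further downstream, at 54426834. The second sequence belongs to the start that RefSeq gives to both genes. The 250 bases upstream of this start in RefSeq on GRCh38.p14, a later build than that of the files, are chr12:54016638-54016887 on the plus strand. Capitals mark ATTGG, the CCAAT motif read on the other strand, which began 200 and 77 bases before the start.
HOXC4 and HOXC5 start: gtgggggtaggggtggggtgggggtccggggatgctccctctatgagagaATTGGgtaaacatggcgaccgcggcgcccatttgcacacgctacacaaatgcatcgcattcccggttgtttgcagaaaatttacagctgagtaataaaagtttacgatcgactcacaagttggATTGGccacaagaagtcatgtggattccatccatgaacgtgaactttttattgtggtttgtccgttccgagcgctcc

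RefSeq windows were found for 20 of the 39 members, as 26 distinct windows, of which 7 belonged to *HOXA3*. CCAAT, searched on both strands, was present in 17 of the 26 HOX windows (65.4%) and in 32.0% of the 34943 distinct windows of all genes. TATAAA was present in 19.2% of the HOX windows and 10.8% of all windows, and GGGCGG in 13 of the 26 HOX windows and 42.5% of all windows. These motif matches describe letters only. The *HOXC4* and *HOXC5* window had a GC content of 50.8% and 14 CG dinucleotides, against medians of 58% and 11 over all windows.

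Most HOX message came from the HOXB cluster in every group. HOXB held 67.6% ± 0.955 (SD, n = 3) of the summed HOX RPKM in negative SW1990 cells, 73.8% ± 1.32 in positive SW1990 cells, 76.8% ± 1.09 in negative CFPAC-1 cells and 79.3% ± 2.48 in positive CFPAC-1 cells. HOXA held 18.3% to 21.1% on average in the 4 groups. HOXC held 11.5% ± 0.083 in negative and 6.99% ± 0.534 in positive SW1990 cells, but only 0.608% ± 0.0736 and 0.465% ± 0.206 in the CFPAC-1 groups. HOXD was the reverse, with 1.56% ± 0.144 and 1.90% ± 0.235 in the negative and positive cells of CFPAC-1 and 0.184% ± 0.0353 and 0.0238% ± 0.0113 in those of SW1990. The sum over all 39 members was 217.02 to 247.7 RPKM in negative and 199.04 to 213.8 RPKM in positive SW1990 samples, and 216.6 to 228.8 RPKM and 186.6 to 218.4 RPKM in those of CFPAC-1.

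**Figure D1:**
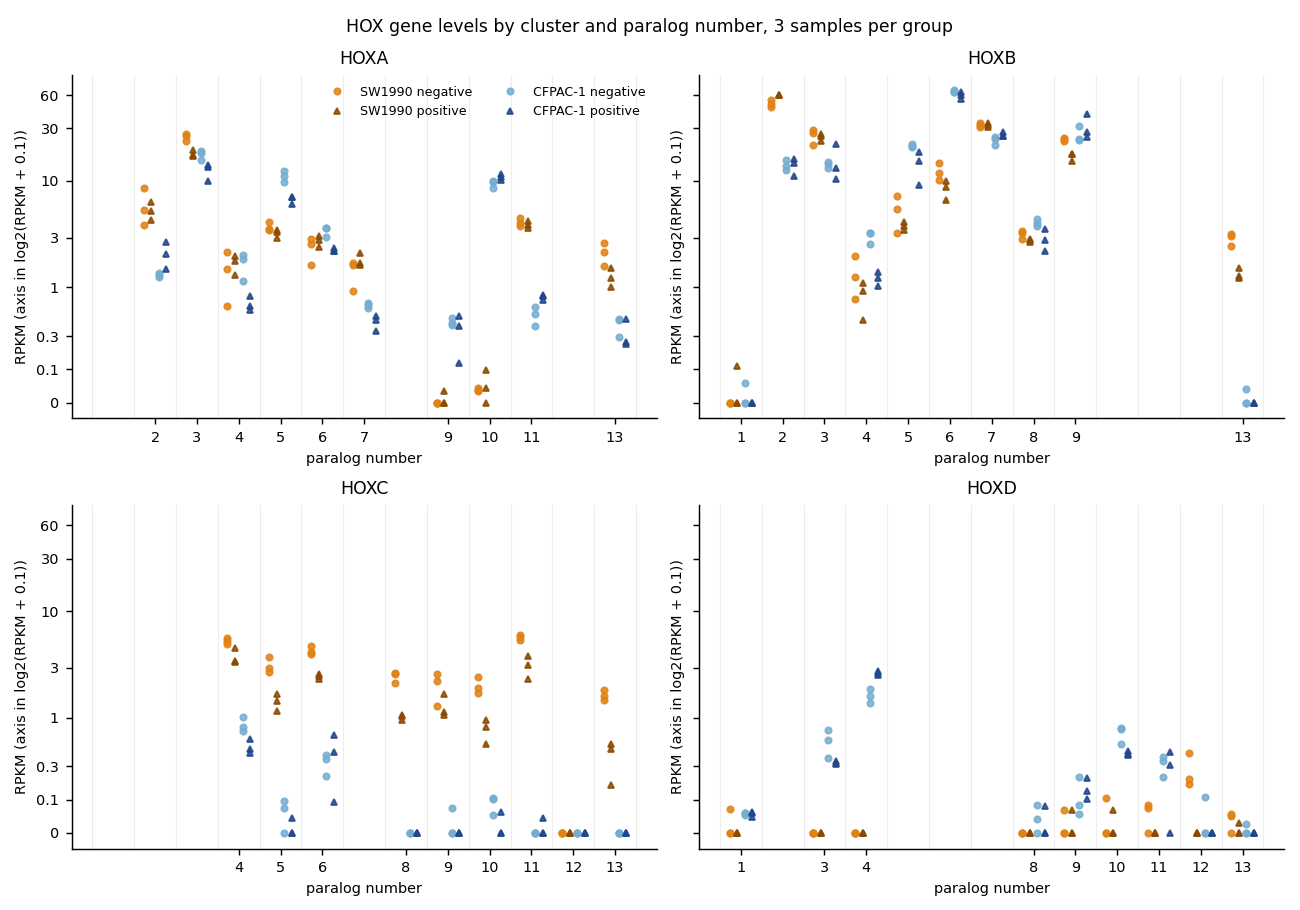
RPKM of 38 of the HOX genes in each sample, with 1 panel per cluster, the paralog number on the horizontal axis and log2 of RPKM plus 0.1 on the vertical axis, labelled in RPKM. Circles are negative and triangles positive cells, SW1990 in orange and brown and CFPAC-1 in light and dark blue, 3 samples each. HOXC points lie above 0.1 RPKM in every SW1990 sample except for *HOXC12*, which is at 0, while *HOXD3* and *HOXD4* are seen in CFPAC-1 alone.

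*HOXB6*, a gene of the middle of the cluster, had the highest mean of all members, 36.4 RPKM over the 12 samples. Its levels were 14.5, 10.1 and 11.7 RPKM in negative and 8.73, 6.75 and 10.0 RPKM in positive SW1990 cells. In CFPAC-1 they were 66.6, 64.0 and 63.5 RPKM in the negative and 64.4, 55.5 and 60.3 RPKM in the positive samples. Every CFPAC-1 sample was thus far above every SW1990 sample. *HOXB2*, an anterior gene of hindbrain patterning, had the opposite order, with 53.7, 49.9 and 46.5 RPKM in negative and 59.7, 60.6 and 60.4 RPKM in positive SW1990 cells. In CFPAC-1 it was at 15.6, 13.6 and 12.5 RPKM in negative and 14.5, 11.1 and 15.8 RPKM in positive cells. *HOXB7* and *HOXB9* were high in both lines, *HOXB7* at 21.4 to 33.9 RPKM and *HOXB9* at 15.1 to 40.3 RPKM over the 12 samples.

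*HOXA3*, an anterior gene with a role in pharyngeal development, led the HOXA cluster at 25.7, 23.0 and 26.6 RPKM in negative and 16.8, 17.0 and 19.1 RPKM in positive SW1990 cells. It was at 18.6, 18.0 and 15.6 RPKM in negative and 13.4, 13.9 and 10.0 RPKM in positive CFPAC-1 cells. Positive samples were below negative samples in both lines, with changes of log2 -0.51 and -0.49 that did not reach 2-fold. *HOXC4* had the highest mean of HOXC, 2.63 RPKM, and *HOXD4* that of HOXD, 1.08 RPKM.

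Of the 39 members, 1 (*HOXC12*) was at 0 in every sample, and 32 had a mean of at least 0.1 RPKM over the 12 samples and were tested. The other 6 were above 0 in some samples but below that mean, *HOXB1*, *HOXD1*, *HOXD8*, *HOXD9*, *HOXD12* and *HOXD13*, and held at most 8 reads in any sample. *HOXD12* gave 3 to 8 reads in the negative SW1990 samples and 0 in the positive ones. Pooled, 14 reads against 0 put it at least 4.10-fold higher in the negative cells, taking 3 reads over the group as the limit of a count of 0. A gene was called when it differed over 2-fold with an unadjusted p under 0.01 in limma, on the log2(RPKM + 0.1) scale, which understates the change of low genes.

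The lines differed first in the HOXC cluster. All 8 members of HOXC with reads were higher in SW1990 in negative cells and in positive cells, while *HOXC12* gave no read. Of the 32 members tested, 14 were higher and 9 lower in negative SW1990 than in negative CFPAC-1 cells, where 21.9% of the 16236 genes tested were higher and 15.0% lower. In positive cells 16 were higher and 8 lower, against 14.8% and 13.7% of all genes. The median difference of the 32 was log2 0.70 in negative and 1.00 in positive cells, against 0.19 and 0.06 over all genes. Some members passed the filter only because of the line where they were high, so that these counts describe the members and do not weigh them against other genes. Dividing out each sample's median shifted the median of all genes by 0.19 in the negative cells and 0.15 in the difference of the 2 sorted changes, and left 14 higher and 10 lower, and 16 higher and 8 lower members.

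*HOXC11*, a posterior gene, gave the largest HOXC difference. It was at 5.996, 5.44 and 5.75 RPKM in negative and 2.38, 3.18 and 3.91 RPKM in positive SW1990 cells, and at 0 in 5 of 6 CFPAC-1 samples. The sixth, positive replicate 1, held 2 reads (0.0375 RPKM). Pooled over the group, 716 reads in negative SW1990 cells against 0 in negative CFPAC-1 cells made a difference of at least 237.7-fold, and 345 reads against 2 in positive cells a ratio of 175.1 (95% exact counting interval 48.1 to 1452).

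*HOXC8* and *HOXC13* gave no read in any CFPAC-1 sample. *HOXC8*, which acts in the thoracic region, was at least 115.9-fold higher in negative and 42.6-fold in positive SW1990 cells. *HOXC13*, the last gene of the cluster and a regulator of hair keratins, was at least 80.0-fold and 16.9-fold higher. *HOXC9* differed by a ratio of 95.6 (26.1 to 795.2) in negative cells, where CFPAC-1 held 2 reads in all, and by at least 37.2-fold in positive cells. Of the 3 members with the lowest numbers, *HOXC4* and *HOXC6* were read in every CFPAC-1 sample and *HOXC5* was near 0. *HOXC5* was at 0 in 3 of 6 CFPAC-1 samples, with 7 pooled reads in negative and 2 in positive cells, and its ratios between the lines were 60.2 (29.0 to 150.6) and 85.3 (23.2 to 709.8). *HOXC4* was at 0.743 to 1.01 RPKM in negative and 0.429 to 0.604 RPKM in positive CFPAC-1 cells, with ratios of 6.29 (5.19 to 7.67) and 7.25 (5.62 to 9.49) between the lines. *HOXC6* gave ratios of 12.97 (9.60 to 17.9) and 5.47 (4.10 to 7.42), with only 2 reads in positive CFPAC-1 replicate 3. In GENCODE 17.5% of the exonic bases of *HOXC4* and 16.1% of those of *HOXC6* overlap other members on the same strand. Their reads may thus be shared in part.

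Outside HOXC, *HOXB13*, a posterior gene known from the prostate and hindgut, was at 2.52, 3.24 and 3.13 RPKM in negative and 1.29, 1.53 and 1.23 RPKM in positive SW1990 cells. In CFPAC-1 it was at 0 in 5 of 6 samples, with 2 reads in negative replicate 3. *HOXA11* and *HOXA13*, posterior genes of the limb and urogenital tract, were also higher in SW1990, by log2 2.79 and 2.15 in negative and 2.18 and 1.72 in positive cells. The anterior genes *HOXA2* and *HOXB2* were higher by log2 2.02 and 1.85 in negative and by 1.31 and 2.13 in positive cells. The genes higher in SW1990 thus came from both ends of the HOXA and HOXB clusters. *HOXA4* and *HOXA7* were called higher in SW1990 only in positive cells, at log2 1.20 and 1.87, against -0.32 and 0.97 in negative cells.

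The members higher in CFPAC-1 were *HOXA5*, *HOXA9*, *HOXA10*, *HOXB5*, *HOXB6*, *HOXD3*, *HOXD4* and *HOXD10* in both sorted populations, and *HOXB4* in negative cells. *HOXB5* and *HOXB6*, neighbours in the cluster, differed by log2 -2.01 and -2.42 in negative and -1.80 and -2.82 in positive cells (SW1990 minus CFPAC-1). *HOXA5*, a gene of lung and foregut patterning, differed by -1.52 and -1.02. *HOXD3* and *HOXD4* gave no read in SW1990. *HOXD4* was at 1.62, 1.91 and 1.39 RPKM in negative and 2.60, 2.67 and 2.79 RPKM in positive CFPAC-1 cells, at least 43.8-fold and 62.1-fold above SW1990. *HOXD3* was at least 27.1-fold and 13.5-fold higher.

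**Figure D2:**
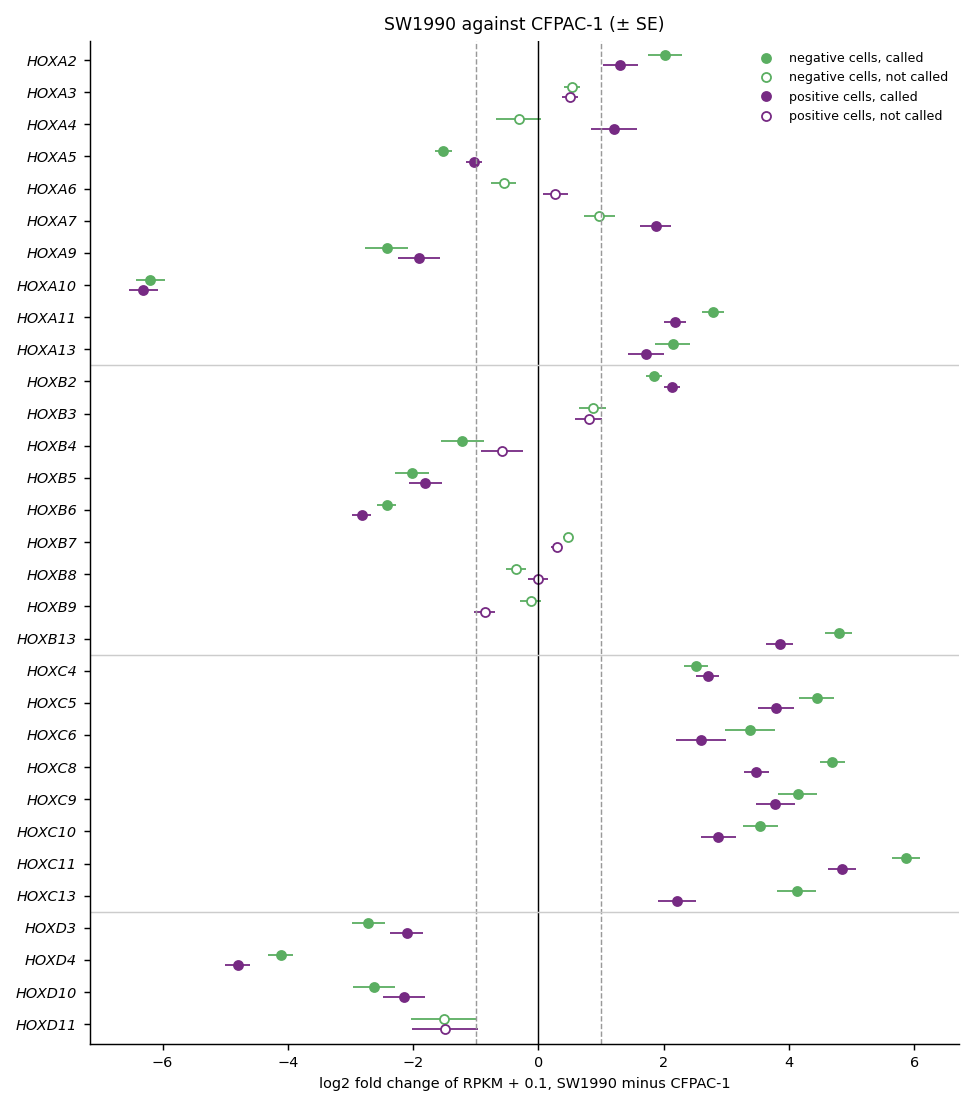
Log2 fold change of RPKM + 0.1 of SW1990 minus CFPAC-1 for 31 of the 32 members tested, in negative (green) and positive (purple) cells, with SE as bars, filled where called and dashed lines at 2-fold. The 8 HOXC members lie right of the dashed line at 1 in both populations, while *HOXA10* lies near -6 in both.

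The paralogs of number 10 divided by line, and were not alone in this. In both sorted populations *HOXC4*, *HOXC5*, *HOXC6* and *HOXC9* were called higher in SW1990. Their paralogs *HOXD4*, *HOXA5*, *HOXB5*, *HOXB6* and *HOXA9* were called higher in CFPAC-1. *HOXA10*, known from uterine and blood cell development, was at 8.64, 9.86 and 10.0 RPKM in negative and 10.9, 10.2 and 11.6 RPKM in positive cells of CFPAC-1, and at 0.0305, 0.0270 and 0.0355 RPKM and 0.0970, 0 and 0.0354 RPKM in those of SW1990. These SW1990 values stood for 0 to 6 reads a sample. *HOXC10*, known from the hindlimb, was at 1.94, 1.75 and 2.45 RPKM in negative and 0.947, 0.541 and 0.807 RPKM in positive SW1990 cells. Its CFPAC-1 values were 0.105, 0.0467 and 0.102 RPKM in negative and 0, 0.0544 and 0 RPKM in positive cells. The read ratio between the lines was 311.4 (142.8 to 849.7) for *HOXA10* in negative cells, higher in CFPAC-1, and 24.2 (12.9 to 51.1) for *HOXC10*, higher in SW1990. *HOXD10* was low throughout, at 0.403 to 0.779 RPKM in CFPAC-1 and at most 0.108 RPKM in SW1990.

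*HOXA9*, next to *HOXA10*, was at 0.129 to 0.502 RPKM in CFPAC-1 and gave 1 read in total over the SW1990 samples. In GENCODE 15.9% of its exonic bases overlap other genes on the same strand, among them a readthrough gene with *HOXA10*, and the annotation and strand setting used for counting are not given in the sources used here. *HOXA11*, on the other side of *HOXA10*, was at 0.397 to 0.832 RPKM in CFPAC-1 and 3.69 to 4.53 RPKM in SW1990. The order of the lines thus turned between these neighbouring genes.

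In SW1990, 5 of the 32 HOX genes tested were called lower in GCTM-5 positive than in negative cells. They were *HOXC13*, *HOXC10*, *HOXC8* and *HOXC5*, 4 of the 8 HOXC members tested, and *HOXB13*. By limma none was called higher, and at an unadjusted p under 0.05 none was higher and 11 were lower. The share of all genes at that limit is not given here, for these or later counts. At p under 0.01 without a fold limit, 9 were lower and 0 higher. Of all 16236 genes, 4225 passed that limit, 1694 of them higher. Voom on reads recovered from the RPKM called 5 lower and 0 higher. Over all genes 7.48% were called lower and 4.59% higher in positive cells. The summed HOXC level was 25.1 to 28.3 RPKM in negative and 13.3 to 16.1 RPKM in positive samples, without overlap. The median change of the 32 members was log2 -0.29 against -0.04 for all genes, and 23 of the 32 were below 0 and 7 above. Since these are bulk samples, fewer cells using a gene and less RNA in each cell cannot be told apart.

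*HOXC13* fell most. It was at 1.48, 1.61 and 1.84 RPKM in negative and 0.172, 0.541 and 0.471 RPKM in positive cells, so that the lowest negative sample was above every positive one. Its log2 change was -1.91 ± 0.31 (SE, adjusted p = 0.0006), and its pooled reads were 241 against 50, a ratio of 4.24 (95% exact counting interval 3.11 to 5.87). *HOXC10*, whose values are given above, also had separate groups and changed by log2 -1.33 ± 0.28 (adjusted p = 0.0039). *HOXC8* was at 2.70, 2.16 and 2.64 RPKM in negative and 1.04, 0.953 and 1.06 RPKM in positive cells. Its change was log2 -1.21 ± 0.20 (adjusted p = 0.0007), and the positive samples lay close together.

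*HOXC5* was at 3.77, 2.97 and 2.74 RPKM in negative and 1.16, 1.71 and 1.46 RPKM in positive cells and changed by log2 -1.08 ± 0.29 (adjusted p = 0.014). In GENCODE 67.3% of its exonic bases overlap other genes on the same strand, so reads of neighbouring transcripts may have been counted with it. *HOXB13* changed by log2 -1.08 ± 0.22 (adjusted p = 0.0028). The calls of *HOXC5* and *HOXB13* lie near the 2-fold limit, and with quantile normalization neither was called. With a pseudocount of 0.01 *HOXC5*, *HOXC10* and *HOXB13* were not called, with an adjusted p of 0.14 for *HOXC10*. With a pseudocount of 1, which damps low values, none of the 5 was called. *HOXC5* was also not called without negative replicate 1 or positive replicate 1 of SW1990.

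The other 4 HOXC members with reads had changes below 0 and were not called. *HOXC11* changed by log2 -0.87 (adjusted p = 0.013), *HOXC6* by -0.77 (0.18), *HOXC9* by -0.60 (0.18) and *HOXC4* by -0.47 (0.076), all p from limma with Benjamini-Hochberg adjustment. In 7 of the 8 members, all but *HOXC9*, every positive sample was below every negative one. Over all genes 25.4% had that order. *HOXC6* went from 4.80, 4.20 and 4.02 RPKM in negative to 2.37, 2.50 and 2.62 RPKM in positive cells, a clear separation on the RPKM scale. The test shares its spread with the CFPAC-1 samples, where *HOXC6* ranged from 0.0896 to 0.666 RPKM. Across the 8 members the Spearman correlation of paralog number with the log2 change was -0.62, a description of points that share their libraries.

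**Figure D3:**
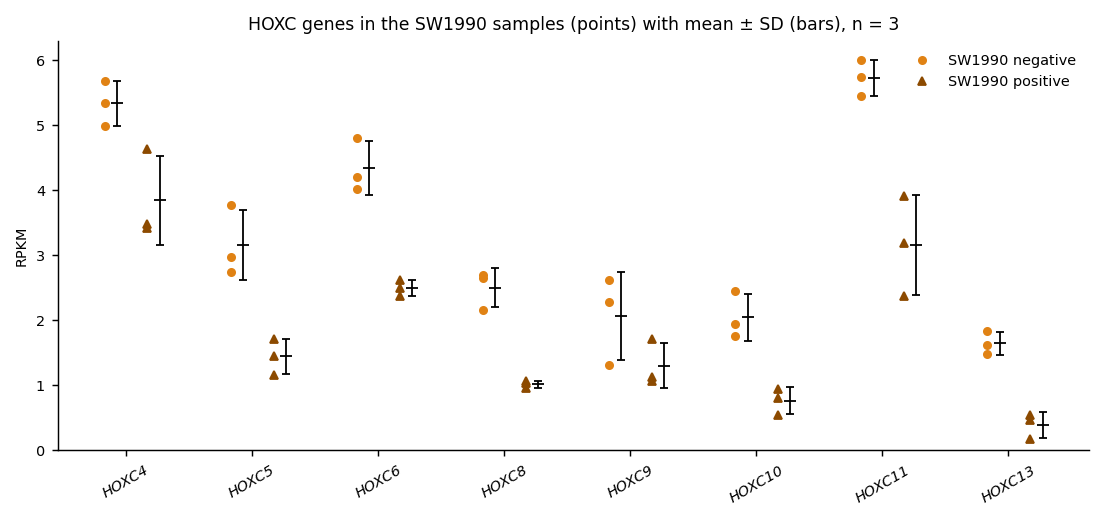
RPKM of the 8 HOXC genes with reads in negative (circles) and positive (triangles) SW1990 samples, with mean ± SD as bars, n = 3. The symbols of the 2 groups do not overlap for any gene but *HOXC9*.

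Most other members moved little in SW1990. Values of HOXA ranged from log2 -0.72 (*HOXA13*) to 0.39 (*HOXA7*). None of them was called by limma or voom, and 2 were lower at an unadjusted p under 0.05. Of HOXB, *HOXB9* and *HOXB6* changed by -0.52 and -0.51 (adjusted p = 0.033 and 0.024), short of 2-fold. *HOXB7* was at 31.0, 33.7 and 32.4 RPKM in negative and 32.3, 33.9 and 31.1 RPKM in positive cells. *HOXB2* was the only member with separate groups that was higher in positive cells, by log2 0.27 (adjusted p = 0.14).

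Positive and negative SW1990 cells also differed widely in epithelial and mesenchymal genes. Of 7 ductal epithelial markers 6 were higher in positive cells, with a summed level of 1661 to 1981 RPKM in negative and 4810 to 5167 RPKM in positive samples. All 5 mesenchymal markers were lower, from 1289 to 1451 RPKM down to 201.1 to 371.9 RPKM. Of 6 fibroblast markers, *LUM* and *PDGFRB* were called lower and the sum fell from 12.7 to 22.6 RPKM to 3.90 to 4.86 RPKM, while *COL1A2*, *COL3A1* and *DCN* were at most 0.0899 RPKM in any sample. Of 3 endothelial markers *CDH5* was called lower, with *VWF* at most 0.256 RPKM and a sum of 14.8 to 18.8 RPKM in negative and 1.47 to 2.05 RPKM in positive samples. Of 3 leukocyte markers *CD14* was called lower, the sum being 0.905 to 1.81 RPKM and 0.268 to 0.326 RPKM, with *PTPRC* and *CD3E* at most 0.0184 RPKM in SW1990. The part of these differences in the HOXC values was not tested.

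In CFPAC-1 only *HOXB4* and *HOXA4* were called, both lower in positive cells, against 4.13% of all genes called lower and 5.65% called higher. By limma none was called higher, while at an unadjusted p under 0.05 there were 4 higher and 10 lower. At p under 0.01 without a fold limit, 6 were lower and 2 higher. Of all 16236 genes, 5131 passed that limit, 3208 of them higher. Voom on recovered reads called 1 lower, *HOXB4*, and 0 higher. *HOXB4*, known for blood stem cell expansion, was at 3.31, 3.28 and 2.62 RPKM in negative and 1.03, 1.23 and 1.43 RPKM in positive cells. Its change was log2 -1.25 ± 0.34 (adjusted p = 0.013), with 383 against 131 pooled reads. *HOXA4* was at 2.05, 1.88 and 1.16 RPKM in negative and 0.642, 0.586 and 0.813 RPKM in positive cells and changed by log2 -1.18 ± 0.36 (adjusted p = 0.025). The samples of the groups were separate for *HOXB4* and *HOXA4*, and for further members given below. In GENCODE 31.3% of the exonic bases of *HOXA4* overlap other genes on the same strand, and 16.5% genes on the other strand.

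Neither call was firm. Without negative replicate 1, negative replicate 2 or positive replicate 1 of CFPAC-1, 0 members were called, and likewise 0 with a pseudocount of 1. *HOXA4* was also lost without positive replicate 2 or 3 of CFPAC-1, without positive replicate 3 of SW1990, which shares the fit, and with voom. Its log2 change stayed between -1.41 and -0.67 over all alternatives, and that of *HOXB4* between -1.36 and -0.87.

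Smaller changes in CFPAC-1 ran in both directions. *HOXD4* was higher in positive cells by log2 0.69 ± 0.20 (adjusted p = 0.019) and *HOXA11* by 0.55 ± 0.17 (adjusted p = 0.027), each with separate groups. *HOXA5*, *HOXC4*, *HOXB8* and *HOXA3* were lower by log2 -0.68, -0.66, -0.52 and -0.49, also with separate groups. Groups were separate too for *HOXA2*, *HOXA10* and *HOXB7*, higher in positive cells, and for *HOXA6*, *HOXA7*, *HOXB5*, *HOXD3* and *HOXD10*, lower. None of these reached 2-fold. The share of all genes with separate groups in CFPAC-1 is not given here, so separation does not set these members apart. The median change of the 32 members was log2 -0.27 against 0.05 for all genes, with 20 below 0. Of the marker lists, no ductal epithelial gene was called in CFPAC-1 by limma or voom (4 passed an unadjusted p under 0.05), *ZEB1* and *SPARC* of the 5 mesenchymal genes were lower, and *CD14* was lower. Summed levels were 6733 to 7702 RPKM in negative and 7361 to 9071 RPKM in positive samples for the epithelial list, and 551.4 to 752.004 RPKM and 420.3 to 589.4 RPKM for the mesenchymal list. The fibroblast sum was 1.26 to 1.72 RPKM and 1.59 to 2.39 RPKM, the endothelial sum at most 0.485 RPKM, and the leukocyte sum 8.61 to 9.57 RPKM and 2.60 to 4.38 RPKM. Their part in the HOX values was not tested.

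**Figure D4:**
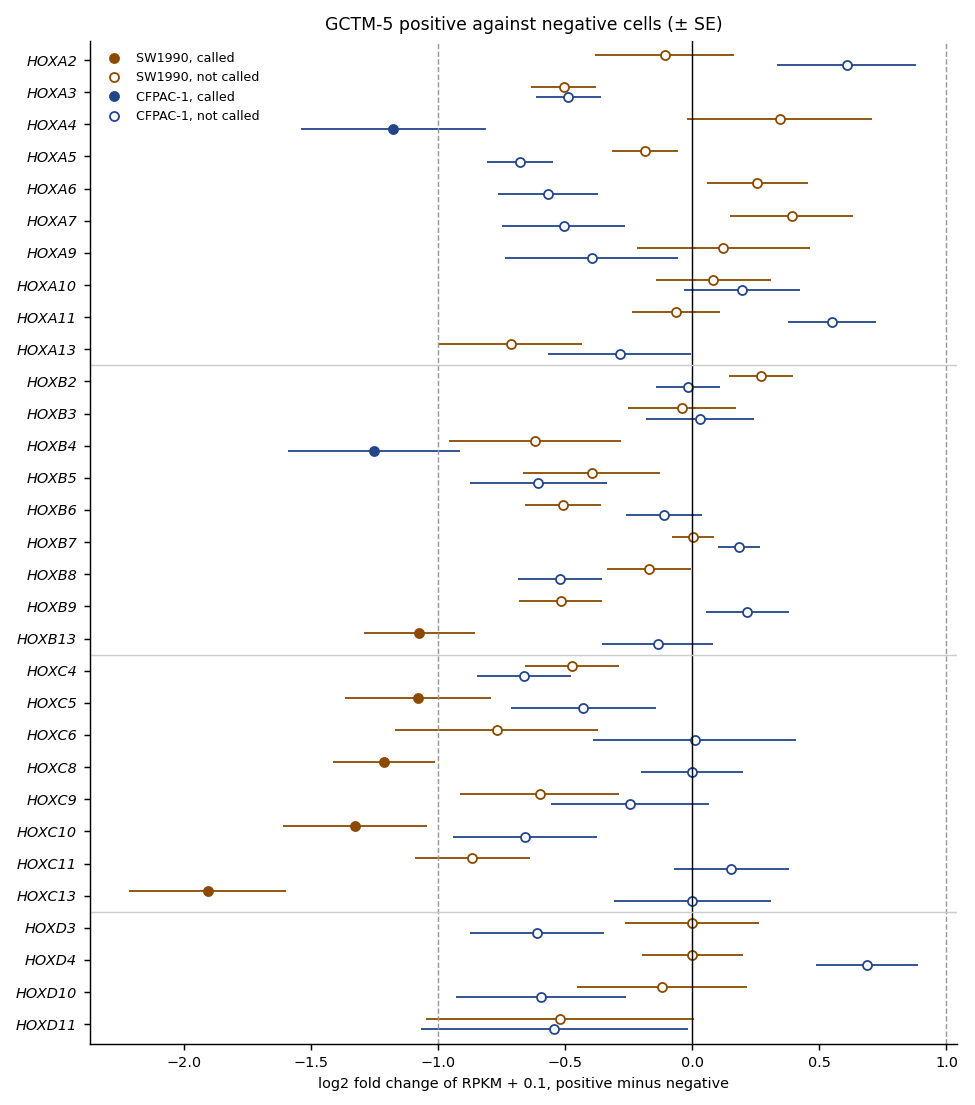
Log2 fold change of RPKM + 0.1 of positive minus negative cells for 31 of the 32 members tested, in SW1990 (brown) and CFPAC-1 (blue), with SE as bars, filled where called and dashed lines at 2-fold. The HOXC genes lie left of 0 in SW1990, with *HOXC13* at -1.91, and *HOXA4* and *HOXB4* are the filled points of CFPAC-1.

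The change between sorted populations differed between the lines for 7 members at an adjusted p under 0.05, against 26.9% of all genes. Only *HOXB9*, *HOXA4* and *HOXA6* of these were read in both lines. The difference, SW1990 minus CFPAC-1 on the log2 scale, was -0.74 for *HOXB9*, 1.52 for *HOXA4* and 0.82 for *HOXA6*. The other 4 were *HOXC13* (-1.91), *HOXC8* (-1.21), *HOXC11* (-1.02) and *HOXB13* (-0.94). *HOXC8* and *HOXC13* gave no read in CFPAC-1, and *HOXC11* and *HOXB13* at most 2 reads a sample, so a fall there could not have been measured and their difference rests on the SW1990 samples. With each sample centred on its median 4 members were more positive and 2 more negative in SW1990, and with quantile normalization 4 and 4, so the balance of directions depended on the scaling. *HOXB9* was read deeply in both lines. It was at 24.2, 23.1 and 24.7 RPKM in negative and 17.7, 15.1 and 17.5 RPKM in positive SW1990 cells, and at 31.7, 23.8 and 23.8 RPKM and 27.8, 25.1 and 40.3 RPKM in those of CFPAC-1. *HOXA6* was at 1.64, 2.62 and 2.89 RPKM and 2.44, 2.86 and 3.10 RPKM in SW1990 and at 3.01, 3.71 and 3.69 RPKM and 2.38, 2.26 and 2.25 RPKM in CFPAC-1.

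The difference was called for only 2 to 7 members when 1 sample was left out. Without negative replicate 1, negative replicate 2, positive replicate 2 or positive replicate 3 of SW1990 it held for 3, 2, 2 and 3 members. Without negative replicate 2 or positive replicate 1 of CFPAC-1 it held for 2 and 3, and without negative replicate 3 or positive replicate 2 of CFPAC-1, or negative replicate 3 of SW1990, for 4 each. These counts include members hardly read in CFPAC-1. *HOXB9* was called in 12, *HOXA6* in 9 and *HOXA4* in 8 of 21 alternatives.

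Of 9 TALE cofactors, 8 were tested. In SW1990 2 were called lower and 0 higher, against 7.48% and 4.59% of all genes, with a median change of log2 -0.36 against -0.04 over all genes. *MEIS1*, a cofactor that HOX proteins bind DNA with, was called lower in positive SW1990 cells. It was at 3.15, 2.31 and 3.93 RPKM in negative and 0.762, 1.52 and 1.31 RPKM in positive cells, without overlap, a change of log2 -1.33 (adjusted p = 0.0012). In CFPAC-1 its groups were also separate, lower in positive cells by log2 -0.40, short of the call. *PBX2* was the highest cofactor, at 97.6 to 127.2 RPKM in SW1990 and 42.5 to 51.3 RPKM in CFPAC-1. No TALE gene was called in CFPAC-1 by limma or voom, and 3 passed an unadjusted p under 0.05.

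Of 21 chromatin and retinoid regulators of the clusters, 20 were tested. Of these 1 was called lower in SW1990, against 7.48% of all genes, and 3 higher in CFPAC-1, against 5.65%. *CBX2*, a Polycomb subunit that binds methylated histone H3, was called in both lines in opposite directions. It was at 6.07, 4.67 and 5.67 RPKM in negative and 0.898, 0.684 and 1.02 RPKM in positive SW1990 cells, log2 -2.53 (adjusted p = 3.8e-06). In CFPAC-1 it was at 0.0617, 0.0915 and 0.120 RPKM in negative and 0.627, 0.661 and 0.522 RPKM in positive cells, log2 1.89 (adjusted p = 8.4e-05). *EZH2*, the Polycomb methyltransferase, and *WDR5*, a subunit of Trithorax type complexes, were higher in positive CFPAC-1 cells, by log2 1.15 and 1.03. The Trithorax gene *KMT2A*, listed as *MLL*, was not called in either line, at log2 -0.11 and -0.13. The median changes of the list were log2 0.08 in SW1990 and 0.16 in CFPAC-1.

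Among 9 noncoding RNAs of the clusters found in the table, 6 were tested. Of these 6, 1, *HOTAIR*, was called lower in SW1990, where 7.48% of all genes were. *HOTAIR*, transcribed antisense between *HOXC11* and *HOXC12*, was at 4.73, 3.08 and 4.27 RPKM in negative and 1.19, 1.67 and 2.15 RPKM in positive SW1990 cells and at 0 in all CFPAC-1 samples. Its SW1990 change was log2 -1.23 (adjusted p = 0.0028). *HOXB-AS3* followed *HOXB5* and *HOXB6* in its order of lines, at 3.27 to 6.99 RPKM in SW1990 and 20.4 to 25.3 RPKM in CFPAC-1. In GENCODE, genes on the other strand overlap 62.5% of the exonic bases of *HOXA7* and 39.3% of those of *HOXA6*. Without a stated strand setting, reads of an antisense RNA and of the gene it overlaps cannot be told apart.

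Genes flanking the clusters gave 1 call in each line among 18 tested of 20 in the table, a share near that of all genes (7.48% lower in SW1990 and 5.65% higher in CFPAC-1). *CALCOCO1*, which flanks HOXC, was lower in positive SW1990 cells, at 5.04, 8.70 and 6.73 RPKM against 15.4, 14.5 and 22.6 RPKM, log2 -1.35 (adjusted p = 0.0009). In CFPAC-1 it changed by log2 -0.99 (adjusted p = 0.0064), just short of 2-fold. *SMUG1* and *CBX5*, also near HOXC, changed by log2 -0.10 and 0.35 in SW1990 and were not called. *SNX10*, near HOXA, was higher in positive CFPAC-1 cells by log2 1.09. The 18 had median changes of log2 -0.05 in SW1990 and 0.15 in CFPAC-1. Of 8 ParaHox and *EVX* genes, which are relatives of the HOX genes, only *PDX1*, the pancreatic determinant, and *CDX2*, an intestinal one, were tested. *PDX1* was at 1.32 to 2.52 RPKM in SW1990 and 2.50 to 5.50 RPKM in CFPAC-1, *CDX2* at 0.351 to 1.68 RPKM and 0.943 to 4.42 RPKM, and neither was called between sorted populations by limma. Voom called *CDX2* lower in positive CFPAC-1 cells, and limma gave it log2 -1.29 with an adjusted p of 0.055.

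**Figure D5:**
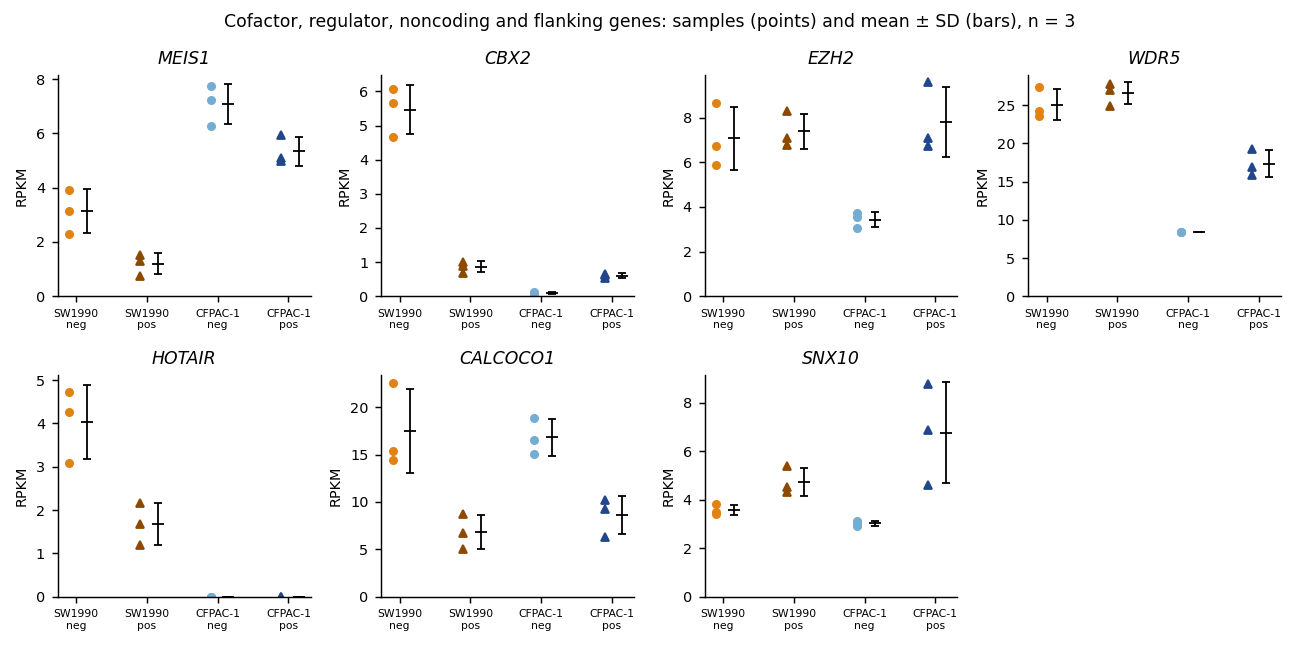
RPKM of 7 genes of the cofactor, regulator, noncoding and flanking lists in each sample of the 4 groups, with mean ± SD as bars, n = 3 per group, all called in at least 1 line. *MEIS1*, *CBX2*, *HOTAIR* and *CALCOCO1* are lower in positive than in negative SW1990 cells, and *EZH2*, *WDR5*, *CBX2* and *SNX10* higher in positive than in negative CFPAC-1 cells.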

How the data were processed

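RNA-seq of the sorted SW1990 and CFPAC-1 cells, 12 samples in 4 groups of 3, was analysed. The deposited values are RPKM, made by the authors with QuasR from reads aligned to hg19/GRCh37. The submitters' processing notes name bcl2fastq. The paper names a TruSeq kit and the labels a strand specific SureSelect kit. The annotation and strand setting used for counting are not given in the sources used here. Library totals were recovered from the RPKM of single-exon genes. The reads of each gene were then found with the smallest gene length that made its values whole to within 0.01 of a read. For genes read in few samples this length may be too short, and their reads are the lowest that fit. Even numbers were in excess among genes with few reads, so both mates of a pair may have been counted. The intervals, which cover counting error only, may then be too narrow. Fold differences given as at least a value take 3 reads for a count of 0 and may then be too high. They also leave out the spread between samples.

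Of 23346 genes, the 16236 whose RPKM averaged at least 0.1 were kept. Log2(RPKM + 0.1) was fitted with limma 3.58.1 in R 4.3.3 with 4 group means and eBayes with trend, all tests 2-sided. The call was over 2-fold with unadjusted p under 0.01, the thresholds of the study, and for the difference between lines a Benjamini-Hochberg adjusted p under 0.05 over all genes. Read ratios pool the 3 samples of a group. The p-values measure the spread between samples of triplicate sorts. The fit was tested on simulated data. Statistics are given for members called in a comparison, for the highest member of each cluster, and for list genes called between sorted populations, at most 4 per list. Further genes were named after their values were seen. The members and gene lists were chosen with earlier results of these data known. Alternatives were pseudocounts of 1 and 0.01, no filter or a mean of at least 1, median centring, quantile normalization, only the groups compared, a replicate block, eBayes without trend, other thresholds, voom on recovered reads, and each sample left out. Single values of some genes are not reported here. Coordinates are those of GENCODE 44 on GRCh37. Python 3.11.15 with numpy 2.4.6, pandas 2.3.3, scipy 1.17.1 and matplotlib 3.10.9 was used.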

Additional observations from a re-analysis of the deposited data

Results flagged for a closer look

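By limma's test of the difference, the change between positive and negative cells differed between SW1990 and CFPAC-1 for 7 of the 32 HOX genes tested. Over all 16236 genes, 26.9% passed the same test at an adjusted p under 0.05. On the log2 scale, the change in SW1990 minus that in CFPAC-1 was -1.91 for *HOXC13*, -1.21 for *HOXC8*, -1.02 for *HOXC11*, -0.94 for *HOXB13*, -0.74 for *HOXB9*, 1.52 for *HOXA4* and 0.82 for *HOXA6*. *HOXC13* and *HOXC8* gave no read in CFPAC-1, and *HOXC11* and *HOXB13* at most 2 reads a sample, so the values of these 4 rest on the SW1990 samples and do not compare responses of the lines. Groups of 3 samples were not examined for samples standing apart.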

How the results depend on the processing

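Counts of called HOX genes depended on the settings. In SW1990, 5 were called lower in positive cells. This became 0 with a pseudocount of 1, 2 with 0.01, 3 with quantile normalization and 9 without a fold limit. It was 4 to 6 with 1 sample left out. With a mean of at least 1 RPKM, 24 members were tested and 2 called. That filter removed *HOXC8*, *HOXC10* and *HOXC13* untested. In CFPAC-1, 2 were called. This became 0 with a pseudocount of 1, 1 with voom on recovered reads, 8 without a fold limit, and 0 to 2 with 1 sample left out. The 7 members whose change differed between lines became 11 and 1 with pseudocounts of 1 and 0.01. They became 2 with voom, 2 at an adjusted p under 0.01, and 2 to 7 with 1 sample left out. With a mean of at least 1 RPKM, 4 of the 24 tested were called, *HOXC8* and *HOXC13* being among those removed. Of the calls between lines, the 24 in positive cells became 14 with a pseudocount of 1, and the 23 in negative cells stayed within 1.5 times. The causes were not tested beyond these changes of setting.

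The deviations of same-numbered samples from their group means correlated at 0.18, 0.02 and 0.12 in SW1990. In CFPAC-1 the correlations were -0.02, 0.00 and -0.06. With 3 samples a group, these values cannot decide whether same-numbered positive and negative samples came from the same sort. With a replicate block 5 members were called in SW1990, 0 in CFPAC-1, 4 for the difference, and 23 in each comparison of the lines. Of the 88 calls of a single gene followed over the alternatives, none reversed, while 1763 repeats kept the call and 146 lost it. The shallowest sample, positive CFPAC-1 replicate 3 with 9969697 reads, limits the precision of genes with few reads in that group.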
